A study of Homo sapiens with 18 samples.

Results

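The Wnt ligands, receptors and regulators described here are 54 genes of the 53853 entries measured in cerebral organoids made from the human embryonic stem cell lines H9 and H1. They were chosen by symbol alone: every WNT, FZD (frizzled receptor), SFRP, DKK, RSPO (R-spondin) and LGR4 to LGR6 gene, together with WLS, PORCN, LRP5, LRP6, FRZB, WIF1, NOTUM, AXIN2, LEF1 and NKD1. The study asked how these organoids respond to dopamine, and each line gave 3 groups at day 83. Chronic organoids received 1 µM dopamine daily for 1 week and a last dose of 1 hour. Acute organoids had vehicle during that week and then the single 1 hour dose of 1 µM dopamine, and controls received vehicle only. Ascorbic acid at 100 µM was the vehicle and was present in every group. All organoids were made with a ventral forebrain protocol whose induction medium held 2 µM XAV939, which blocks tankyrase and so lowers Wnt signalling, and whose later medium held SHH and purmorphamine. Each group holds 3 libraries, numbered 1 to 18 over the series. H9 chronic is libraries 10 to 12, H9 acute 13 to 15, H9 control 16 to 18, H1 chronic 1 to 3, H1 acute 4 to 6 and H1 control 7 to 9. Each line is 1 genetic background, and the labels do not say whether libraries of a group were separate cultures, so p-values cover the spread among these libraries only, and that spread may be technical.

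WNT proteins are lipid-modified by the acyltransferase PORCN, carried to the cell surface by WLS, and bound there by a frizzled receptor with the coreceptor LRP5 or LRP6. In one branch of the pathway this stabilises β-catenin, which enters the nucleus and activates target genes together with TCF and LEF1 factors. R-spondins act through LGR receptors to keep frizzled receptors on the membrane, while SFRP, DKK, WIF1 and NOTUM proteins act outside the cell to limit WNT activity. In the developing forebrain WNT proteins from the dorsal midline, where the cortical hem lies, favour dorsal over ventral fates.

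Library 9 held 43284 counts, against 13647204 to 21691180 in the other 17, and only 11 of the 54 genes had any count in it, so it was left out and H1 control has n = 2. Libraries 4, 8, 13, 17 and 18 carried blood transcripts, with 59 to 1829 counts of HBB (beta globin) and 23 to 141 of S100A9 (a neutrophil protein), against 0 to 13 and 0 to 3 in the remaining 13 libraries. No chronic library is among those 5, and without them H9 control keeps library 16 alone and H1 control library 7 alone. The labels call the organoids ventral forebrain. The ventral factor NKX2-1 was at 46.9 to 82.6 TPM (a level scaled by transcript length and library total) in H9, against 0 to 1.39 TPM in H1.

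Of the 54 genes, 45 held enough counts to be tested. The 9 that did not were the ligands WNT1, WNT2, WNT3A, WNT6, WNT8A, WNT10A and WNT16, the receptor LGR6 and the antagonist DKK4, none of which exceeded 10 counts or 0.75 TPM in any library. All 54 symbols matched the GENCODE annotation, and exons of 16 overlap an exon on the opposite strand, among them WLS with GNG12-AS1, LGR4 with LGR4-AS1 and LEF1. The library preparation kept strand, but no source used here states whether counting used it, and reads of such pairs cannot be told apart. On GRCh38, 5 of the genes called after chronic dopamine lie at chromosome 1, 68098473 to 68233120 (WLS), chromosome 11, 27365961 to 27472790 (LGR4), chromosome 3, 55465715 to 55490539 (WNT5A), chromosome 6, 127118671 to 127199481 (RSPO3) and chromosome 17, 44557484 to 44561262 (FZD2).

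**Figure D1:**
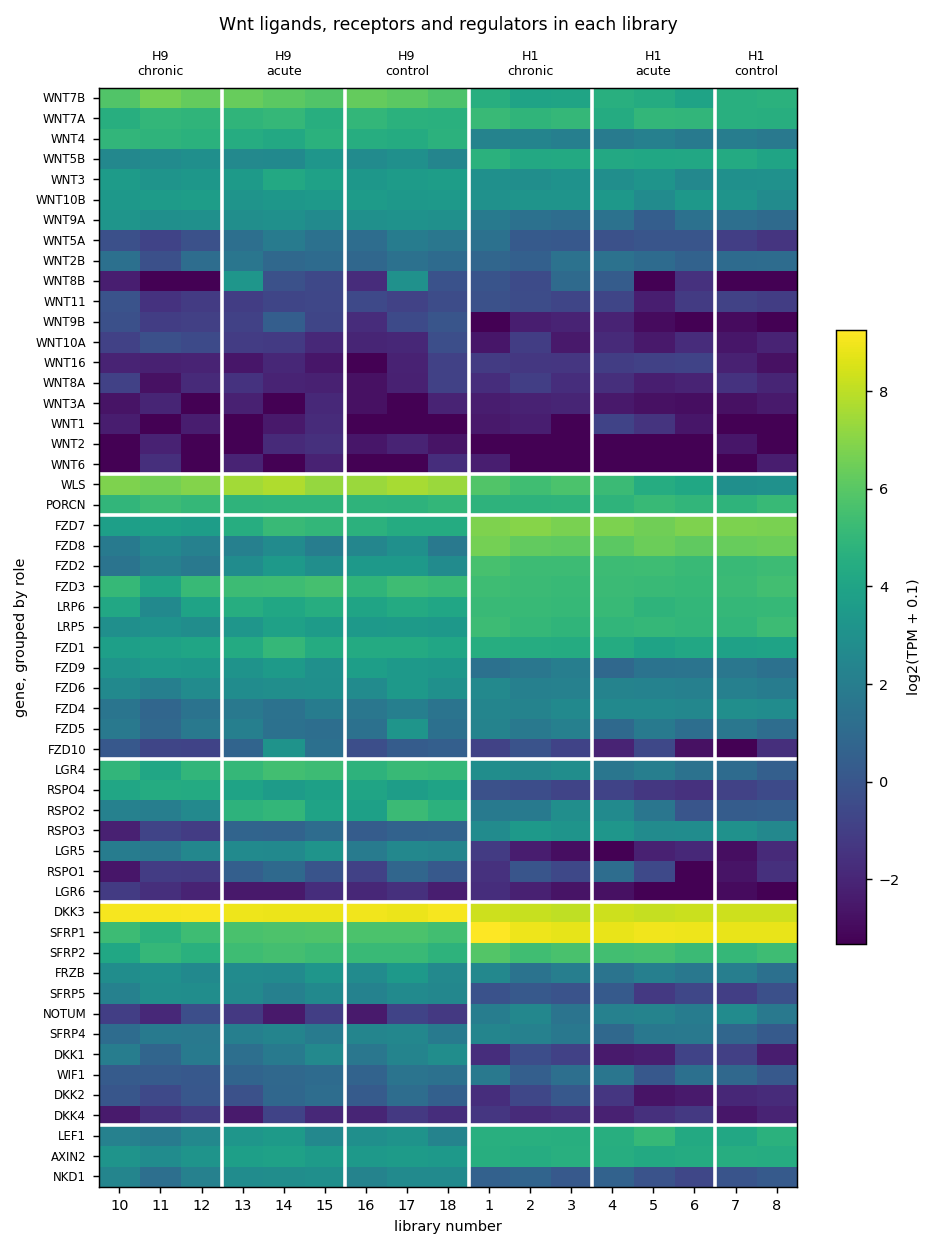
Level of all 54 genes (rows, grouped by role and ordered by level) in the 17 libraries (columns, grouped by line and treatment), as log2(TPM + 0.1). The lines differ more visibly than the treatments: WLS, LGR4, LGR5 and RSPO4 are brighter in H9, and SFRP1, FZD2, FZD7 and FZD8 are brighter in H1.

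Among the ligands, WNT7B, WNT7A and WNT4 had the highest levels in H9, with median TPM over the 9 libraries of 68.5, 29.3 and 25.7. In H1 the order was WNT7A, WNT7B and WNT5B, with medians of 30.6, 22.4 and 19.2 over 8 libraries. WNT7A spanned 23.1 to 32.7 TPM in H9 and 20.9 to 36.4 TPM in H1, and these ranges overlap. WNT7B (54.1 to 96.6 TPM in H9, against 15.6 to 25.96 in H1) and WNT4 (19.1 to 30.7 TPM in H9, against 3.28 to 5.05 in H1) did not overlap between lines. Within H9 the ranges of WNT7A and WNT4 overlap, as do those of WNT7A, WNT7B and WNT5B within H1. These ranges do not compare genes within a library. WNT7A held more counts than WNT5B in each of the 8 H1 libraries. Next in level in both lines came WNT3 and WNT10B at medians of 7.71 to 11.8 TPM.

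Frizzled receptors differed widely in level between the lines. FZD7 was at a median of 21.3 TPM in H9, against 108 TPM in H1, and FZD8 at 4.5 TPM in H9, against 77.8 TPM in H1. FZD3, which acts in planar polarity and axon guidance, led in H9 at a median of 36.9 TPM and was at 37.6 TPM in H1. Summed over the 10 frizzled genes the level was 74.1 to 160 TPM in H9, against 287 to 341 TPM in H1. The coreceptor sum of LRP5 and LRP6 was 14.5 to 34.5 TPM in H9 and 62.1 to 75.8 TPM in H1. Neither sum overlapped between lines.

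For the remaining roles the lines also drew on different genes. The R-spondins with the highest medians in H9 were RSPO4 and RSPO2, at 15.7 and 15.3 TPM, and their ranges overlap. In H1 it was RSPO3 at 7.41 TPM. Among the genes grouped here as antagonists, DKK3, a divergent DKK family member, had the highest median in H9 (508 TPM, and 307 in H1). SFRP1 had the highest median in H1 (469 TPM) and came next after DKK3 in H9 (50.0 TPM). FZD5, PORCN and WNT2B had overlapping ranges in the 2 lines, PORCN at 28.0 to 38.6 TPM in H9 and 27.7 to 35.7 TPM in H1.

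Averaged over treatments, H9 had 22 of the 45 tested genes above and 13 below their H1 level at an adjusted p under 0.05 (quasi-likelihood F test of edgeR, with p-values adjusted by Benjamini-Hochberg). That is 77.8% of them, near the 74.5% of all 17567 tested genes called in this comparison (38.6% higher and 35.9% lower), so the number of calls does not set these genes apart. Their median log2 fold change was 0.62, against 0.03 over all tested genes. By role, of the 19 ligands 7 were not tested, 7 were higher and 1 lower. Of the 6 tested R-spondins and LGRs 4 were higher and 1 lower. Of the 10 frizzled and 2 LRP receptors 3 were higher and 6 lower.

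The 8 of smallest p among those higher in H9 were RSPO4 (log2 fold change 4.99 ± 0.15 SE, adjusted p = 1.6e-14), WNT4 (2.61 ± 0.10), LGR4 (3.26 ± 0.13), WLS (2.80 ± 0.14), LGR5 (5.36 ± 0.32), NKD1 (2.35 ± 0.16), SFRP5 (3.01 ± 0.23) and WNT9A (1.75 ± 0.13). They include the R-spondin receptors and the WNT carrier. LGR5 was at 3.20 to 9.02 TPM in H9, against 0 to 0.35 TPM in H1, where the 8 libraries together held only 26 counts.

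Those lower in H9 were SFRP1 (-3.43 ± 0.08, adjusted p = 8.14e-16), FZD7 (-2.37 ± 0.10), FZD8 (-3.98 ± 0.17), FZD2 (-2.59 ± 0.14), LRP5 (-1.76 ± 0.10), RSPO3 (-3.06 ± 0.18), AXIN2 (-1.07 ± 0.06) and NOTUM (-3.79 ± 0.30), an esterase that removes the lipid of WNT proteins. The genes followed here as β-catenin readouts split, since AXIN2 and LEF1 (-1.87 ± 0.16) were lower in H9, and NKD1 and LGR5 were higher. These 16 genes passed in all 27 alternatives run.

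Of the genes outside those 16, WNT5B was at 5.09 to 9.46 TPM in H9, against 15.9 to 25.6 TPM in H1, the single ligand called lower in H9 (-1.54 ± 0.12, adjusted p = 4.36e-09). WNT9B, a ligand of the kidney and facial ectoderm in mouse, was at 0.20 to 1.23 TPM in H9 and 0 to 0.14 TPM in H1. DKK1, which binds LRP5 and LRP6, was at 1.59 to 7.01 TPM in H9, against 0.09 to 0.68 TPM in H1 (3.65 ± 0.36, adjusted p = 8.47e-08).

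Among receptors, FZD9 was higher in H9 (1.86 ± 0.16), at 7.73 to 13.01 TPM, against 1.81 to 4.05 TPM in H1, and FZD4, the receptor of norrin in the eye, was lower (-1.08 ± 0.11), at 1.68 to 4.15 TPM, against 4.81 to 7.41 TPM in H1. FZD6 (0.62 ± 0.11) and FZD10 (2.5 ± 0.5) were also higher in H9, with ranges that overlap those of H1. The secreted WNT binders split, with FRZB higher in H9 (1.05 ± 0.19) and SFRP2 lower (-0.39 ± 0.13, adjusted p = 0.0132). WNT11, WIF1 and RSPO1 did not pass and stayed at or below 3.23 TPM in every library.

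Markers of region and cell state moved with the line. For 10 cortical glutamatergic markers the summed level was 18.4 to 38.8 TPM in H9, against 1980 to 4110 TPM in H1, although the labels call both lines' organoids ventral. The sum of 11 radial glia markers was 1300 to 2480 TPM in H9 and 3170 to 4010 TPM in H1. For 8 hypothalamic markers the sum was 160 to 287 TPM in H9 and 1.18 to 13.8 in H1, and for 8 cell cycle genes the sum was 32.4 to 61.2 TPM in H9 and 351 to 506 in H1. The part of these differences in the Wnt values was not tested. In bulk RNA, fewer cells of a type and less RNA per cell cannot be told apart, here and in every comparison below.

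**Figure D2:**
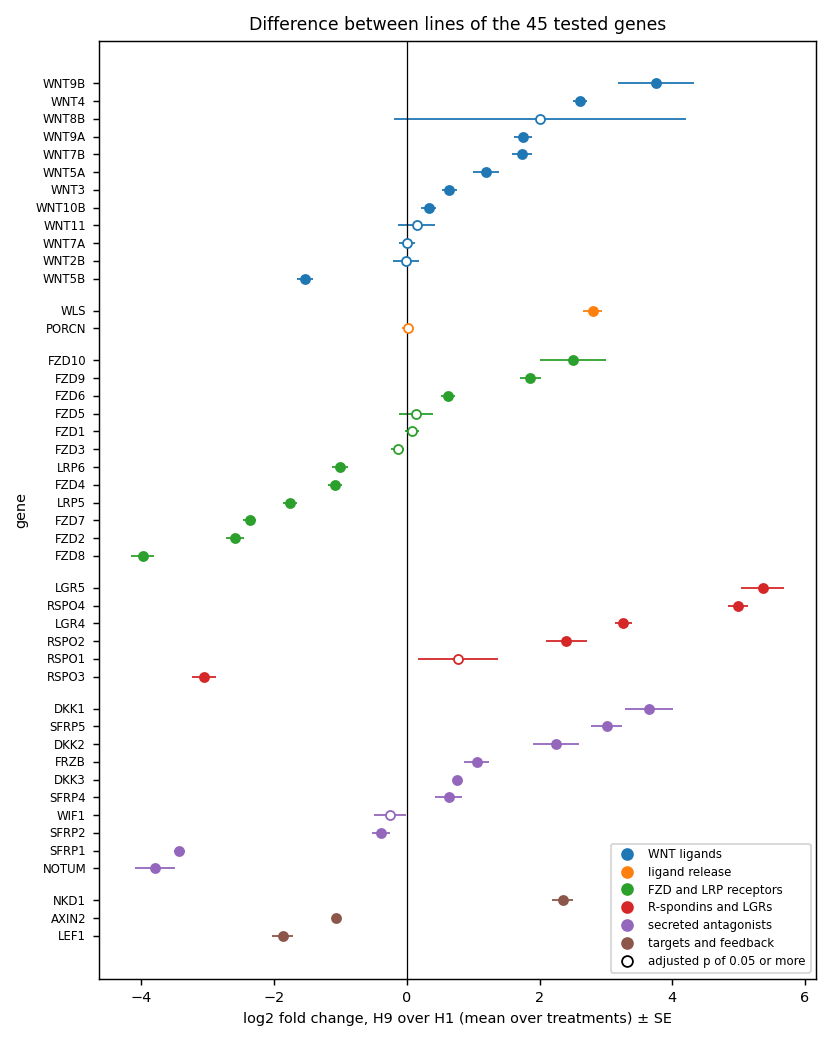
Log2 fold change of H9 over H1 (horizontal, ± SE) for the 45 tested genes, coloured by role, with filled points for adjusted p under 0.05. LGR5, RSPO4 and LGR4 lie furthest right among genes of the R-spondin branch, and FZD8, NOTUM and SFRP1 furthest left of all genes drawn.

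Chronic dopamine in H1 raised WLS, LGR4, WNT5A and SFRP4, and no Wnt gene fell. The 4 are 8.89% of the 45 tested, beside 1.59% of all tested genes called in this comparison (1.3% higher and 0.29% lower). The direction was also shared beyond the calls, with 35 of 45 log2 fold changes positive and a median of 0.33, against 9025 of 17567 positive and a median of 0.01 over all genes.

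WLS was at 56.1, 41.4 and 51.6 TPM in H1 chronic libraries, against 7.66 and 8.04 TPM in H1 control libraries. The groups stand far apart, and the log2 fold change was 2.63 ± 0.26 SE (adjusted p = 0.000116, edgeR). WLS passed in all 28 alternatives, with log2 fold changes of 2.51 to 2.76.

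LGR4, a receptor of R-spondins, was at 7.03, 5.65 and 7.00 TPM in H1 chronic libraries, against 1.98 and 1.31 TPM in H1 control. These values do not overlap, and the log2 fold change was 1.96 ± 0.25 (adjusted p = 0.00104). Without library 8 it was 1.68 with adjusted p = 0.0603.

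WNT5A, a ligand known for signalling that does not run through β-catenin, was at 2.49, 1.06 and 0.99 TPM in H1 chronic libraries, against 0.41 and 0.28 TPM in H1 control. Library 1 stood above the other chronic libraries, and all 3 exceeded both controls. The log2 fold change was 2.10 ± 0.40 (adjusted p = 0.0138), but adjusted p = 0.346 without library 8 and 0.0619 without library 7. Leaving out either control assumes that the lone control library varies like the other groups.

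SFRP4, a secreted WNT-binding protein, was at 5.24, 4.48 and 3.12 TPM in H1 chronic libraries, against 1.65 and 1.07 TPM in H1 control, with a log2 fold change of 1.61 ± 0.39 (adjusted p = 0.0448). It lay close to the threshold: the adjusted p was 0.0503 to 0.607 without any 1 of libraries 1, 2, 5, 6, 7, 8, 12, 13, 14, 15, 16 or 17. In the libraries without blood transcripts, where 1 control remains, WLS alone of the 4 passed (adjusted p = 0.016).

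RSPO2, a cortical hem R-spondin, was at 3.51, 3.37 and 7.43 TPM in H1 chronic libraries, against 1.18 and 1.26 TPM in H1 control. It did not pass (1.94 ± 0.66, adjusted p = 0.205), although its values did not overlap. None of the β-catenin readouts passed. AXIN2, which destabilises β-catenin as a feedback, was at 23.6, 21.8 and 24.3 TPM in H1 chronic libraries, against 23.0 and 21.5 TPM in H1 control. These ranges overlap, with a log2 fold change of 0.03 ± 0.11, and LEF1 (0.06 ± 0.28), NKD1 (0.42 ± 0.31) and LGR5 (0.54 ± 0.91) did not pass either.

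**Figure D3:**
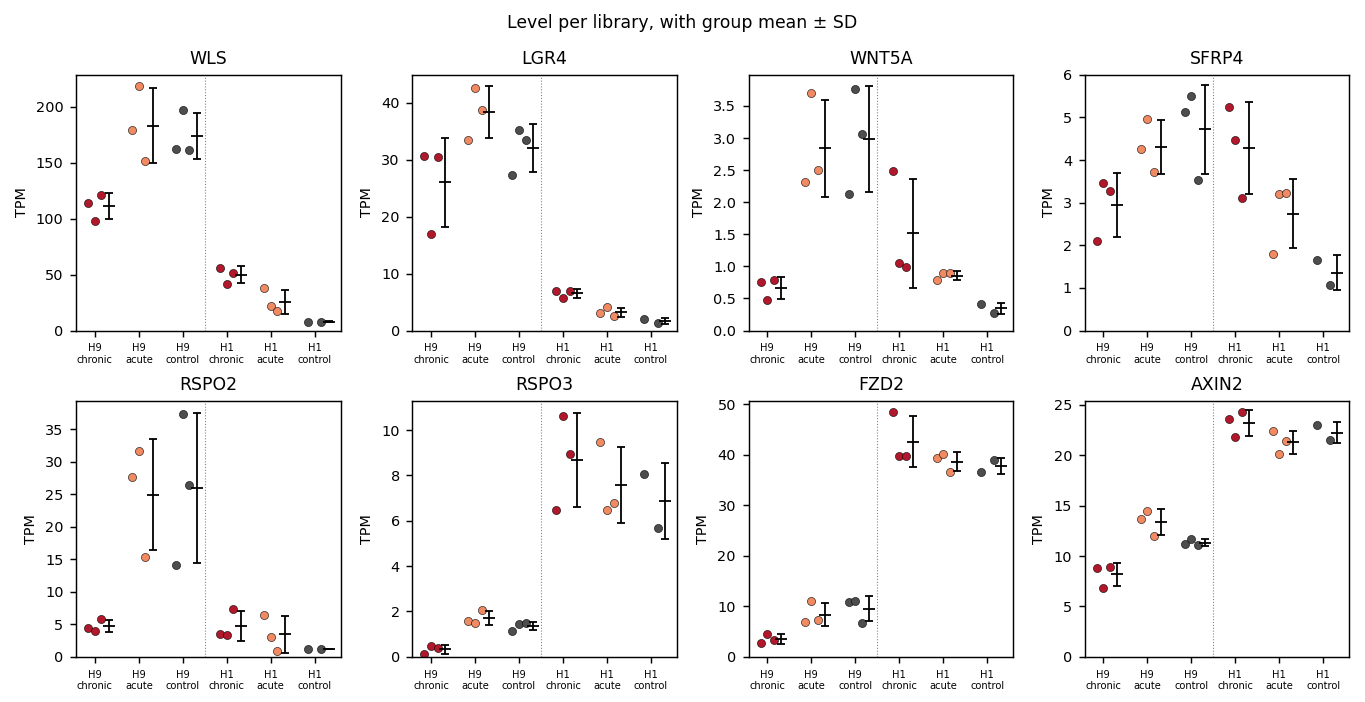
TPM (vertical axes from 0) of 8 genes in each library, by line and treatment, with group mean ± SD beside the points (n = 3, and 2 in H1 control). WLS and LGR4 are lowest in H1 control, and WNT5A, RSPO2, RSPO3 and FZD2 are lower in each H9 chronic library than in each H9 control library.

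Chronic dopamine in H9 lowered WNT5A, FZD2, RSPO3 and RSPO2, and no Wnt gene rose. The 4 are again 8.89% of those tested, beside 0.649% of all tested genes called in this comparison (0.0171% higher and 0.632% lower). Of the 45 log2 fold changes 34 were negative, with a median of -0.30, against a median of 0.01 over all genes. All 12 frizzled and LRP receptors had negative values, at a median of -0.42, though only FZD2 passed. Library 11 differed most from its group (chi-square per gene 80.36 and 61.23 against libraries 10 and 12, and 7.65 between those). LRP6 was at 354 counts in it, against 893 and 762 in the other H9 chronic libraries and 897 to 1065 in H9 control. FZD3 to FZD6 were also lowest there, while FZD1, FZD2, FZD7, FZD8, FZD9 and LRP5 were highest there among H9 chronic libraries. The part of library 11 in these values was not tested.

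WNT5A was at 0.75, 0.47 and 0.78 TPM in H9 chronic libraries, against 2.12, 3.77 and 3.06 TPM in H9 control. The lowest control is more than any chronic library, and WNT5A fell by 2.10 ± 0.33 on the log2 scale (adjusted p = 0.0109). Without library 17 it was lower by a log2 fold change of -1.91, with adjusted p = 0.0796.

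RSPO2 was at 4.44, 4.02 and 5.84 TPM in H9 chronic libraries, against 14.2, 37.3 and 26.5 TPM in H9 control. Library 16 was the lowest of the controls and still above all chronic libraries. The log2 fold change was -2.36 ± 0.48 (adjusted p = 0.0321). It missed the threshold without any 1 of libraries 8, 10, 11, 12, 17 or 18, at adjusted p of 0.0508 to 0.186.

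RSPO3 was at 0.12, 0.49 and 0.37 TPM in H9 chronic libraries, against 1.15, 1.43 and 1.51 TPM in H9 control, on 26 counts in all 3 chronic libraries and 115 in the controls. These low levels did not overlap, and the log2 fold change was -1.92 ± 0.38 (adjusted p = 0.0302). The adjusted p was 0.0509 to 0.123 without library 3, 10, 12, 17 or 18.

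FZD2, a receptor of both WNT3A and WNT5A in mammalian cells, was at 2.75, 4.55 and 3.29 TPM in H9 chronic libraries, against 10.9, 11.1 and 6.63 TPM in H9 control. Its groups did not overlap, with library 18 nearest to the chronic ones. The log2 fold change was -1.32 ± 0.26 (adjusted p = 0.0302), and the adjusted p was 0.0509 to 0.134 without library 3, 10, 12, 16 or 17.

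These 4 calls depended on which libraries entered the fit. With H9 chronic and H9 control libraries alone 0 of the 45 passed, as without library 17 and in the libraries without blood transcripts, where library 16 is the lone control; with blood transcripts as a covariate only WNT5A passed. In those settings the log2 fold changes were -1.66 to -2.17 for WNT5A and -1.55 to -2.37 for RSPO2. In H9 the receptor FZD7 (-0.69 ± 0.17, adjusted p = 0.0666) and AXIN2 (-0.40 ± 0.11, adjusted p = 0.108) did not pass, although AXIN2 was at 8.84, 6.82 and 8.87 TPM in H9 chronic libraries, below the 11.2, 11.7 and 11.1 TPM of H9 control. WLS (-0.57 ± 0.20), LEF1 (-0.53 ± 0.28), NKD1 (-0.51 ± 0.24) and LGR5 (-0.16 ± 0.34) did not pass either.

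Markers of other cell types also moved with chronic dopamine. In H9 chronic 4 mesenchyme markers fell, COL1A1, COL1A2, COL3A1 and DCN, and all 10 tested of 11 had negative log2 fold changes. Their sum was 26.2 to 34.4 TPM in H9 chronic libraries, against 49.4 (library 16), 275 (library 17) and 230 TPM (library 18) in H9 control. FOXC2 of that list was at 0 in every H9 library, and in library 16 COL1A1 was at 0.56 TPM, within the 0.52 to 0.75 TPM of H9 chronic. The cortical hem list includes RSPO2 and WNT8B. Its 8 other markers summed to 78.2 to 90.7 TPM in H9 chronic and 110 to 135 TPM in H9 control. Most of that sum was BMP7, at 70.8 to 80.1 TPM in H9 chronic and 82.9 to 86.9 TPM in H9 control. It also holds LMX1A, and TTR at 1.43 to 2.16 TPM in H9 chronic and 5.95 to 13.6 TPM in H9 control. LMX1A, a roof plate and hem factor, fell to 1.41, 0.82 and 0.45 TPM in H9 chronic libraries, against 8.20, 30.4 and 23.5 TPM in H9 control. Radial glia markers summed to 1300 to 1460 TPM in H9 chronic and 1760 to 2180 TPM in H9 control, and hypothalamic markers to 270 to 287 TPM in H9 chronic and 213 to 233 TPM in H9 control. Most of the hypothalamic sum was ARHGAP36 and NKX2-2. ARHGAP36 was at 119 to 156 TPM in H9 chronic and 79.7 to 91.6 TPM in H9 control. NKX2-2 was at 76.4 to 102 TPM in H9 chronic and 66.95 to 78.35 TPM in H9 control. ISL1 of that list went the other way, at 11.3 to 19.1 TPM in H9 chronic and 18.97 to 22.95 TPM in H9 control. The part of these lists in the Wnt values was not tested. In library 16 the 4 Wnt genes, the mesenchyme sum and LMX1A were all above every H9 chronic library.

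In H1 the 11 mesenchyme markers summed to 54.5 to 82.3 TPM in chronic libraries and 26.4 to 27.2 TPM in controls, with 0 of 10 tested passing in edgeR, and 9 pigment markers summed to 20.7 to 23.7 TPM in H1 chronic and 5.43 to 5.61 TPM in H1 control. The 11 markers of ventral GABAergic cells summed to 450 to 766 TPM in H1 chronic and 68.7 to 159 TPM in H1 control. The 10 cortical glutamatergic markers summed to 1980 to 2350 TPM in H1 chronic and 3300 to 4110 TPM in H1 control. Choroid plexus markers varied within groups: the 8 summed to 155 TPM in library 1 and 502 TPM in library 3 but 28.6 TPM in library 2 of H1 chronic, against 13.2 to 14.0 TPM in H1 control. TTR alone made up most of the high sums, at 116 TPM in library 1, 461 TPM in library 3 and 1.59 TPM in library 2. In library 2, where WLS was at 41.4 TPM, the mesenchyme (54.5 TPM), pigment (20.7 TPM) and GABAergic (450 TPM) sums were also above both controls. The part of these lists in the H1 values was not tested.

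**Figure D4:**
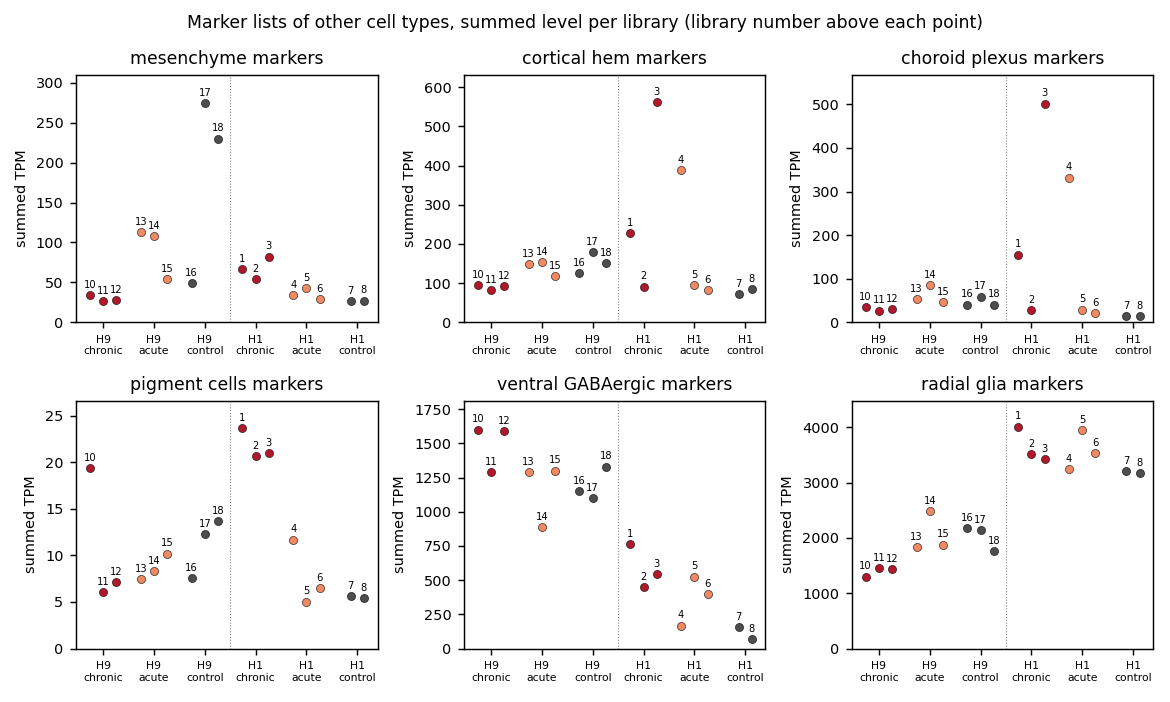
Summed TPM (vertical axes from 0) of 6 marker lists in each library, numbered, by line and treatment. Mesenchyme markers are highest in H9 control libraries 17 and 18, and pigment markers are at 20.7 to 23.7 TPM in all H1 chronic libraries. The choroid plexus sums stand out in libraries 1, 3 and 4, where most of the sum is TTR.

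The chronic effect itself differed between lines for 7 of the 45 genes, all with a lower value in H9 than in H1, which is 15.6% of them beside 1.72% of all tested genes called in this comparison (0.188% higher and 1.54% lower). The difference in log2 fold change (H9 minus H1) was -3.20 ± 0.33 for WLS (adjusted p = 0.000471), -4.20 ± 0.52 for WNT5A (0.000935), -2.22 ± 0.31 for LGR4 (0.00165), -4.30 ± 0.81 for RSPO2 (0.0134), -2.22 ± 0.48 for RSPO3 (0.0242), -2.19 ± 0.50 for SFRP4 (0.0333) and -1.46 ± 0.36 for FZD2 (0.0496). WNT5A is the only gene of the 45 that passed in both lines, and it did so in opposite directions. WLS passed this test in all 28 alternatives, and WNT5A and LGR4 in 27, the exception being the libraries without blood transcripts (adjusted p = 0.166 and 0.30).

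For AXIN2 (-0.43 ± 0.16), LEF1 (-0.59 ± 0.40), NKD1 (-0.94 ± 0.39) and LGR5 (-0.70 ± 0.97) the difference did not pass. Calls for RSPO2, RSPO3, SFRP4 and FZD2 depended on single libraries. RSPO2 missed the threshold without library 7 or 8 (adjusted p = 0.0648 and 0.11), RSPO3 without library 8, 12 or 17 (0.0542 to 0.155) and SFRP4 without library 1, 2, 7, 8, 10, 12, 16 or 17 (0.0502 to 0.239). FZD2 missed it without any 1 of 14 libraries, namely 1 to 8, 10, 12, 13, 15, 16 and 17 (0.056 to 0.205). Averaged over lines, WLS (1.03 ± 0.16, adjusted p = 0.0079) and LGR4 (0.86 ± 0.15, 0.0179) rose with chronic dopamine, 2 of 45 beside 0.524% of all tested genes called. Both averages sum opposite signs, since WLS and LGR4 had negative values in H9. Without library 8 neither passed (adjusted p = 0.109 and 0.267), and LGR4 also missed without library 1 (0.0509). The next gene, RSPO3, did not pass (-0.81 ± 0.24, adjusted p = 0.175), nor did AXIN2 (-0.19 ± 0.08), LEF1 (-0.23 ± 0.20), NKD1 (-0.04 ± 0.20) or LGR5 (0.19 ± 0.48).

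**Figure D5:**
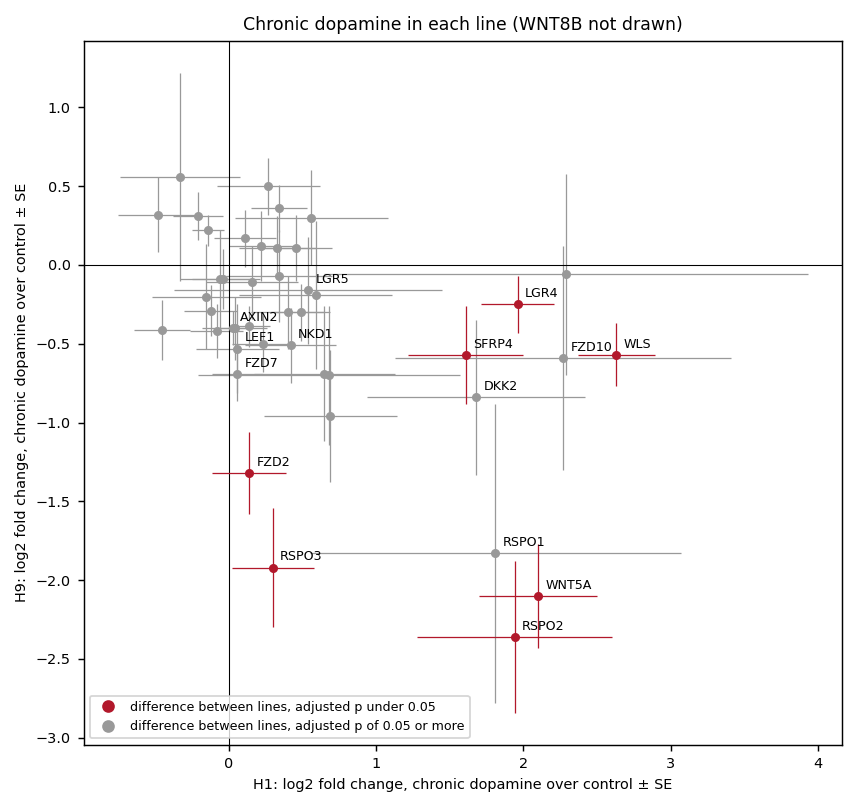
Log2 fold change of chronic dopamine over control in H9 (vertical, ± SE) and in H1 (horizontal, ± SE) for 44 of the 45 tested genes, WNT8B not drawn. The 7 red points, whose effects differ between lines, lie at positive values in H1 and negative values in H9, with WNT5A at 2.10 in H1 and -2.10 in H9.

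The promoters of genes that moved were searched for the short motif that TCF and LEF1 proteins bind, and are shown to let the letters be read beside the changes above. In the RefSeq promoter table on GRCh38.p14, 36 of the 54 genes were searched. The motif CTTTGAA and its variants, which are the form CTTTGAT, the form CTTTGTA and the form CTTTGTT, searched on both strands with no overlap between them, occur in the 250 bases before the start of 4199 of 35116 promoters (12%) and of 1 of the 36 Wnt genes (2.8%), DKK1, a LRP5 and LRP6 antagonist, with 2 matches. The letters were not found in this window of WLS, LGR4, WNT5A, SFRP4 or RSPO3, which says nothing of the factor. For WLS and WNT5A the bases next to the start lie in an exon of another transcript of the same gene and are not printed. FZD2, FZD7, AXIN2 and NKD1 are named only. The 60 bases just before the start follow for genes that moved with chronic dopamine, and the 76 bases around the matches, in capitals, for DKK1, each in gene orientation. The DKK1 bases overlap an exon of PRKG1-AS1, which lies on the other strand.
LGR4 (chr11:27472791-27472850, minus strand, in an exon of LGR4-AS1 on the other strand): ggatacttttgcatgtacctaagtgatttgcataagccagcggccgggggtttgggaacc
SFRP4 (chr7:37916818-37916877, minus strand): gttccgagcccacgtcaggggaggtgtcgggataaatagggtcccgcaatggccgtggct
RSPO3 (chr6:127118611-127118670, plus strand): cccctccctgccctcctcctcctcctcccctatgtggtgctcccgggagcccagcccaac
DKK1 (chr10:52314161-52314236, plus strand): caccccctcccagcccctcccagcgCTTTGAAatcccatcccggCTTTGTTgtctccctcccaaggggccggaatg

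Acute dopamine changed 1 Wnt gene in H1 and none in H9. These comparisons share their control libraries with the chronic ones. WLS was at 37.8, 21.5 and 17.8 TPM in H1 acute libraries, against 7.66 and 8.04 TPM in H1 control. The groups did not overlap, with library 4 the highest, and the log2 fold change of WLS was 1.73 ± 0.26 (adjusted p = 0.036), 1 of 45 genes beside 0.0114% of all tested genes called. It held in 14 of 28 alternatives. The adjusted p was 0.583 without library 8, 0.222 without library 7 and 0.0596 to 0.0802 without library 1, 3, 5, 12, 13, 16, 17 or 18, and it was 1 with only the libraries compared. In library 4 the choroid plexus markers summed to 332 TPM, of which TTR alone was 300 TPM, against 13.2 to 14.0 TPM in H1 control. Ventral GABAergic markers summed to 167 to 525 TPM in H1 acute and 68.7 to 159 TPM in H1 control, with 11 of 11 log2 fold changes positive (median 1.94), 0 passing in edgeR and 9 at an unadjusted p under 0.05. The part of these lists in the WLS value was not tested.

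LGR4 (0.98 ± 0.26, adjusted p = 0.637) and WNT5A (1.33 ± 0.41, 0.806) came next in H1 and did not pass. LGR4 was at 3, 4.06 and 2.57 TPM in H1 acute libraries, between the chronic and the control libraries. AXIN2 (-0.04 ± 0.11), LEF1 (0.24 ± 0.28), NKD1 (-0.03 ± 0.31) and LGR5 (-0.19 ± 0.98) did not pass in the acute H1 comparison.

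In H9 acute 0 of 45 passed in edgeR, DESeq2 or limma, with 2 at an unadjusted p under 0.05, and 0% of all genes were called. The smallest p belonged to FZD10, a frizzled receptor of the dorsal neural tube, at 1.57, 8.82 and 2.42 TPM in H9 acute libraries, against 0.71, 1.15 and 1.30 TPM in H9 control. Library 14 held most of the signal, and the log2 fold change of 1.99 ± 0.62 (adjusted p = 0.945) ranged over 0.85 to 2.39 when 1 library was left out. FZD7 (0.34 ± 0.16), WNT3 (0.36 ± 0.18), WLS (0.03 ± 0.20), AXIN2 (0.19 ± 0.11), LEF1 (0.31 ± 0.27), NKD1 (0.25 ± 0.24) and LGR5 (0.51 ± 0.34) did not pass.

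The acute effect was also not called different between the lines in edgeR for any of the 45 genes, with 4 at an unadjusted p under 0.05 and 0% of all genes called. For WLS that difference was -1.70 ± 0.32 (adjusted p = 0.369), and it passed in DESeq2 (1 of 45, adjusted p = 0.00167) and without the low-count filter (0.00216) but not in limma. WNT5A (-1.44 ± 0.50), LGR4 (-0.77 ± 0.31), AXIN2 (0.23 ± 0.16), LEF1 (0.08 ± 0.39), NKD1 (0.28 ± 0.39) and LGR5 (0.70 ± 1.07) did not pass. Averaged over lines, 0 of 45 passed after acute dopamine in edgeR, with 5 at an unadjusted p under 0.05 and 0% of all genes called, while DESeq2 called WLS (0.88, adjusted p = 0.000632) and limma none. The edgeR values were 0.88 ± 0.16 for WLS (adjusted p = 0.399), 0.60 ± 0.16 for LGR4 and 0.61 ± 0.25 for WNT5A. AXIN2 (0.08 ± 0.08), LEF1 (0.27 ± 0.20), NKD1 (0.11 ± 0.20) and LGR5 (0.16 ± 0.55) did not pass in this average.

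Set against acute rather than control organoids, chronic dopamine in H9 lowered 6 Wnt genes, 13.3% of 45, beside 1.45% of all tested genes called (0.216% higher and 1.23% lower). This comparison shares the chronic libraries with the chronic comparison against control. FZD7 was at 13.7, 13.8 and 12.7 TPM in H9 chronic libraries, against 23.0, 36.1 and 31.4 TPM in H9 acute, and fell by 1.04 ± 0.17 on the log2 scale (adjusted p = 0.00519). The feedback gene AXIN2 was at 8.84, 6.82 and 8.87 TPM in H9 chronic libraries, against 13.7, 14.5 and 11.96 TPM in H9 acute, a log2 fold change of -0.59 ± 0.11 (adjusted p = 0.0105). Neither pair of groups overlapped. AXIN2 missed the threshold in edgeR without library 14 (adjusted p = 0.0911), with all 18 libraries (0.0833) and in the libraries without blood transcripts (0.162). With only the H9 chronic and H9 acute libraries all 6 genes missed it (adjusted p = 0.0971 to 0.328).

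WNT5A (-1.99 ± 0.33, adjusted p = 0.00558), RSPO3 (-2.19 ± 0.37, 0.00722), RSPO2 (-2.27 ± 0.48, 0.0237) and FZD2 (-1.09 ± 0.26, 0.0484) also fell. RSPO2 was at 27.7, 31.7 and 15.3 TPM in H9 acute libraries, all above the highest chronic library. RSPO2 missed the threshold without library 11, 12, 13 or 14 (adjusted p = 0.0564 to 0.14), and FZD2 without any 1 of libraries 1 to 8, 10, 12, 14, 15 or 16 (0.0555 to 0.263). WLS (-0.60 ± 0.20, adjusted p = 0.135), LEF1 (-0.84 ± 0.28), NKD1 (-0.76 ± 0.24) and LGR5 (-0.67 ± 0.34) did not pass. The mesenchyme markers summed to 54.5 to 113 TPM in H9 acute libraries, again above H9 chronic, and their part was not tested.

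In H1 0 of 45 passed in edgeR between chronic and acute organoids, with 5 at an unadjusted p under 0.05, beside 0.0455% of all tested genes called. DESeq2 called LGR4 (0.98, adjusted p = 0.00364) and WLS (0.90, 0.0094), and limma called none. In edgeR their values were 0.98 ± 0.20 (adjusted p = 0.104) and 0.90 ± 0.21 (0.173), followed by DKK2 (1.81 ± 0.65, 0.56). Without library 4 WLS reached 1.26 (adjusted p = 0.026). LGR4 passed without library 11 (1.00, adjusted p = 0.026). AXIN2 (0.07 ± 0.10), LEF1 (-0.18 ± 0.25), NKD1 (0.45 ± 0.27) and LGR5 (0.73 ± 0.83) did not pass.

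The other genes of the pathway came from a list of 72, of which 67 were tested. In H9 chronic against control 6 of 67 fell and 0 rose, beside 0.649% of all tested genes called (0.632% lower). All 6 act at the cell surface or outside the cell. TRABD2A (-3.13 ± 0.61, adjusted p = 0.0299) and TRABD2B (-2.84 ± 0.56, 0.0302) are the TIKI proteases that cleave WNT proteins, CELSR1 (-0.71 ± 0.15, 0.0394) is a planar polarity cadherin, and TNFRSF19 (-0.75 ± 0.16, 0.0409) is a surface receptor known as a β-catenin target. TRABD2A was at 0.30, 0.04 and 0.20 TPM in H9 chronic libraries, against 0.88, 1.85 and 2.25 TPM in H9 control. Of the 33 intracellular components none was called in this comparison in edgeR, with 6 at an unadjusted p under 0.05. At the share of all tested genes called, none of 33 does not set the intracellular components apart. No pathway gene of the 67 passed in H9 chronic against control without library 11, 12 or 17, with blood transcripts as a covariate, with H9 chronic and control libraries alone, or without blood-carrying libraries, while DESeq2 called 8 and limma 4.

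Against H9 acute, H9 chronic libraries had 7 of the 67 lower, beside 1.45% of all tested genes called (1.23% lower). They were led by LRP4 (-1.76 ± 0.28, adjusted p = 0.00519), a relative of LRP5 and LRP6, and DACT1 (-0.58 ± 0.10), GPC4 (-0.96 ± 0.18) and CELSR1 (-0.75 ± 0.15). The number lower was 0 with only the compared libraries, 1 without library 14 and 3 with all 18 libraries. It was 4 without library 11 and 4 without library 12, where 1 more was higher. Without library 10, and in DESeq2, it was 10, each with 2 more higher. In H1 chronic against control 0 of 67 passed in edgeR, beside 1.59% of all tested genes called. There were 8 at an unadjusted p under 0.05, with 3 called by DESeq2 and 0 by limma. With only the compared libraries edgeR called 4 (3 lower and 1 higher), without library 11 it called 2, and it called 1 without the low-count filter or without library 6, 10 or 14. The smallest p was that of TLE4, a corepressor of TCF and LEF factors (-0.68 ± 0.17, adjusted p = 0.0557). Beside 1.72% of all tested genes called, the chronic effect differed between lines for TRABD2A (-4.51 ± 0.98, adjusted p = 0.0261) and CCND1 (-1.63 ± 0.37, 0.0333), which encodes cyclin D1. Neither passed without library 1, 7, 8, 12 or 17, when 0 of 67 did, and 1 of 67 passed without library 18. The count was 4 without library 11, 13 or 14, 8 in DESeq2 and 9 without the low-count filter. After acute dopamine 0 of 67 passed in edgeR, DESeq2 and limma in either line, with 1 in H1 and 2 in H9 at an unadjusted p under 0.05.

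The authors' deposited tables list 55 genes for acute and 213 for chronic dopamine, without the samples compared. Among Wnt genes, the authors' deposited table for acute dopamine holds only FZD10, with a signed fold change of 3.98 and an FDR p-value of 0.04. The authors' deposited table for chronic dopamine holds 5: WNT8B (signed fold change -59.8, FDR p-value 0.01), RSPO2 (-5.16, 8.87e-13), WNT5A (-4.29, 2.55e-10), RSPO3 (-3.81, 0.00263) and FZD2 (-2.5, 0.00211). For each of the 6 genes the sign of the fold in the authors' deposited table is that of the H9 libraries, while the H1 chronic means of all 5 lie above the H1 control means. For FZD10 the H1 acute mean also lies above that of H1 control (0.25 and 0.11 TPM), so its sign does not separate the lines. In the authors' deposited tables the log2 column carries the opposite sign of the fold in all 55 and all 213 genes, and the fold is used here. Sign aside, the log2 column of the authors' deposited chronic table gives 2.37 for RSPO2, 2.1 for WNT5A, 1.93 for RSPO3 and 1.32 for FZD2. With only H9 chronic and H9 control libraries the log2 fold changes here were -2.37, -2.1, -1.92 and -1.33. WLS and LGR4, which rose in H1 and were not called in H9, are in neither of the authors' deposited tables. As the values there follow H9, that absence says nothing of H1.

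WNT8B, a hem ligand, was at 0.11, 0 and 0 TPM in H9 chronic libraries, 9.63, 0.78 and 0.55 TPM in H9 acute, and 0.20, 8 and 0.80 TPM in H9 control. Its high values were in libraries 13 and 17, both with blood transcripts, and H9 chronic against control did not pass in edgeR (-5.89 ± 1.96, adjusted p = 0.224).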

How the data were processed

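RNA was measured in 18 bulk libraries of 6 groups, per the labels, and 17 were analysed, library 9 being left out for its depth. Libraries were poly(A) selected and strand-specific, per the labels' protocols, and the submitters' processing notes name GRCh38 and hg38. No source used here names the aligner, counter or annotation. The authors deposited raw counts per gene symbol and TPM (levels scaled by length and library total). The authors' deposited comparison tables hold a log2 fold change, a signed fold change, treated as a score, and an FDR p-value. Among the symbols 28 had become dates, with 0.439% of counts.

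Counts were scaled by TMM and filtered with filterByExpr, leaving 17567 genes. An edgeR 4.0.16 quasi-likelihood test in R 4.3.3 compared contrasts of the 6 groups in 1 fit, adjusted by Benjamini-Hochberg over all genes tested, with a threshold of 0.05. SE is the log2 fold change divided by the root of F. Alternatives included DESeq2 1.42.0, limma 3.58.1 on log2(TPM + 1) and log2(TPM + 0.1), other scalings and filters, and leaving out libraries. The scripts were tested on simulated data. Replicates differed beyond sampling noise in all 16 pairs (chi-square per gene 2.51 to 80.36, the highest for libraries 10 and 11). Total counts were 13647204 to 21691180, and 3 counts are 0.138 to 0.22 CPM.

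The genes, lists and tests were chosen with earlier results of these data known. Named are all genes past the threshold, otherwise the 3 of smallest p; for the lines, the 8 of smallest p in each direction; up to 4 other pathway genes; and WLS, AXIN2, LEF1, NKD1 and LGR5 throughout. NKX2-1, HBB, S100A9 and, outside that rule, RSPO2, FZD7 and WNT8B were chosen after their values were seen. One marker and the list that holds it are not reported here. Positions are from GENCODE 44 and promoters from RefSeq.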

Additional observations from a re-analysis of the deposited data

Results flagged for a closer look

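The response to chronic dopamine differed between lines for 7 genes by a test of the difference itself (edgeR, log2 fold change in H9 minus that in H1). The values were -3.2 for WLS, -4.2 for WNT5A, -2.22 for LGR4, -4.3 for RSPO2, -2.22 for RSPO3, -2.19 for SFRP4 and -1.46 for FZD2. For WLS the effects were -0.57 ± 0.20 in H9, which did not pass, and 2.63 ± 0.26 in H1. For WNT5A the effects were -2.10 ± 0.33 in H9 and 2.10 ± 0.40 in H1. For RSPO3 they were -1.92 ± 0.38 in H9 and 0.30 ± 0.28 in H1, and for FZD2 -1.32 ± 0.26 in H9 and 0.14 ± 0.25 in H1, neither of which passed in H1. Neither line's control group is free of libraries with blood transcripts, and H1 control holds 2 libraries.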

How the results depend on the processing

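Of 2696 alternative values for 97 single-gene results, 2540 stayed on the same side of the threshold, 140 lost the call and 16 gained one. The direction reversed in 0, but it was checked only where the reported or the alternative value passed. Counts of the 45 genes moved as follows, and the cause was not tested except where fewer libraries entered. With only the compared libraries the counts were 0 for acute H1 (1 as reported), 7 for chronic H1 (4), 0 for chronic H9 (4), 0 for chronic against acute H9 (6) and 4 for the chronic line difference (7). Without blood-carrying libraries they were 0, 1, 0, 3 and 1 for those comparisons, and 0 for the chronic average (2). With blood transcripts as a covariate chronic H9 had 1 and the chronic average 1. DESeq2 gave 2 for chronic against acute H1 (0), 14 for chronic against acute H9, 1 for the acute average (0) and 1 for the acute line difference (0). With no low-count filter these 4 were 2, 13, 1 and 1, and the chronic average 4. DESeq2 and the unfiltered fit each gave 6 for chronic H9. At an adjusted p under 0.1 chronic against acute H9 had 11. In limma on log2(TPM + 1) acute H1 had 0, chronic against acute H9 11 and the chronic average 1, and on log2(TPM + 0.1) acute H1 had 0 and the chronic average 1.

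Leaving out 1 library gave 0 to 1 for acute H1, 1 to 4 for chronic H1, 0 to 5 for chronic H9, 0 to 1 for chronic against acute H1, 3 to 9 for chronic against acute H9, 0 to 3 for the chronic average, 3 to 9 for the chronic line difference, 35 to 37 for H9 against H1, and 0 for acute H9, the acute average and the acute line difference. No paired analysis was possible because the labels give the groups no shared replicate numbers. In limma the median log2 fold change of all genes was -0.11 to -0.14 for chronic against acute H9 and the chronic line difference, a shift that was not subtracted. Low counts limit RSPO3 in H9, WNT8B and LGR5 in H1.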
